A study of Mus musculus with 14 samples.

Results

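The complement and coagulation factors described here are 35 genes of secreted plasma proteins, 16 of complement and 19 of coagulation and fibrinolysis, out of 18193 genes named on the array. Members were taken from a written list of symbols, with the probe set of the highest mean signal standing for each gene where the platform annotation gave that probe set exactly 1 symbol. This left 33 measured genes with 44 probe sets, all past the signal filter. C3 had no such probe set and the only one naming C4b also names C4a, so neither entered the counts.

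The livers came from male CBA/J mice, an inbred strain, each on its own array and each housed alone on 84 kcal per week of a diet modelled on AIN93M. From 2 months of age 7 mice ate the diet with a krill powder extract and 7 the control diet, and livers were taken at 5 months, after 3 months of feeding. Total lipid and protein were equal between the diets, while their amino acids and fatty acids were not. A bulk liver sample cannot tell fewer cells of a type from less RNA per cell. Albumin (Alb) and transthyretin (Ttr), defining products of hepatocytes, were bright on every array, with lowest signals of 60906 and 70543 in krill livers and 45619 and 50487 in control livers.

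Complement is a chain of plasma proteases and their substrates that coats microbes and opens pores in their membranes. Its lectin branch starts when mannose-binding lectins meet sugars on a surface and switch on the MASP proteases, which cut C4 and C2, and the terminal components then assemble into the membrane attack complex. Coagulation is a similar chain in which vitamin K dependent proteases and their cofactors turn prothrombin into thrombin, thrombin turns fibrinogen into fibrin, and antithrombin, protein C and plasmin restrain or dissolve the clot. Hepatocytes make most of these proteins.

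The arrays of the krill group did not form 1 cluster in technical measures. Hybridisation spike-ins, control RNAs added to every sample at the array step, averaged 14.13 to 14.35 (log2) on krill replicates 2, 4, 5 and 7, 12.93 to 13.18 on krill replicates 1, 3 and 6, and 12.60 to 13.23 on control arrays. An index of the ratio of 3' to 5' signal in actin and pyruvate carboxylase control probe sets ran from 2.44 to 3.12 (log2) on krill and from 1.56 to 2.28 on control arrays, so this measure and diet cannot be told apart. The GAPDH ratio, which is not in the index, overlapped, at 0.75 to 1.69 on krill and 0.75 to 0.90 on control arrays. The called members are therefore also given without krill replicates 2, 4, 5 and 7, with 3 krill and 7 control arrays left. How much of any difference came with array quality was not tested.

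Signals below are MAS5 intensities, and a change is the krill minus control difference of mean log2(signal + 16). The main question was whether complement and coagulation transcripts differed between krill and control livers, and whether both families did so alike. The mannose-binding lectins Mbl1 and Mbl2 were 3.26-fold and 1.99-fold higher in krill livers, and antithrombin (Serpinc1) 1.78-fold higher. C6, the lectin pathway protease Masp1 as its brightest probe set reads it, plasma prekallikrein (Klkb1) and factor XI (F11) were 4.40-fold, 3.38-fold, 3.67-fold and 2.93-fold lower. The fibrinogen chains and prothrombin differed by less than the test could call. Among the 14 measured complement members 7 fell, 5 rose and 2 were not called, and among the 19 coagulation members 7 fell, 1 rose and 11 were not called (limma, Benjamini-Hochberg adjusted over 11308 genes).

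These counts stand beside a table in which 47.7% of all 11308 tested genes were called, 22.9% higher and 24.8% lower. The called share was 85.7% of the complement members and 42.1% of the coagulation members, so the coagulation share lay close to that of all genes. The median log2 change was -0.35 over the complement members and -0.07 over the coagulation members, against 0.04 over all tested genes. Krill and control livers did not overlap in 3 of the 33 members (9.09%), Mbl1 above and Masp1 and F11 below, against 14.1% of all tested genes (6.52% above and 7.61% below). Without krill replicates 2, 4, 5 and 7 the complement counts were 4 higher and 4 lower (57.1%) and the coagulation counts 1 higher and 3 lower (21.1%), where 32.3% of all genes were called, 12.7% higher and 19.6% lower. The medians were then 0.14 and -0.04, against -0.04 over all genes, so the order of the families turned round. It also turned, to a difference of 0.02, with the mean of each gene's probe sets and with Serping1 counted as coagulation. Of the 20 called members 12 were called in the same direction in both fits. Without krill replicate 5 alone the coagulation members called lower numbered 4, where 2552 of all 11308 genes were called lower.

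**Figure D1:**
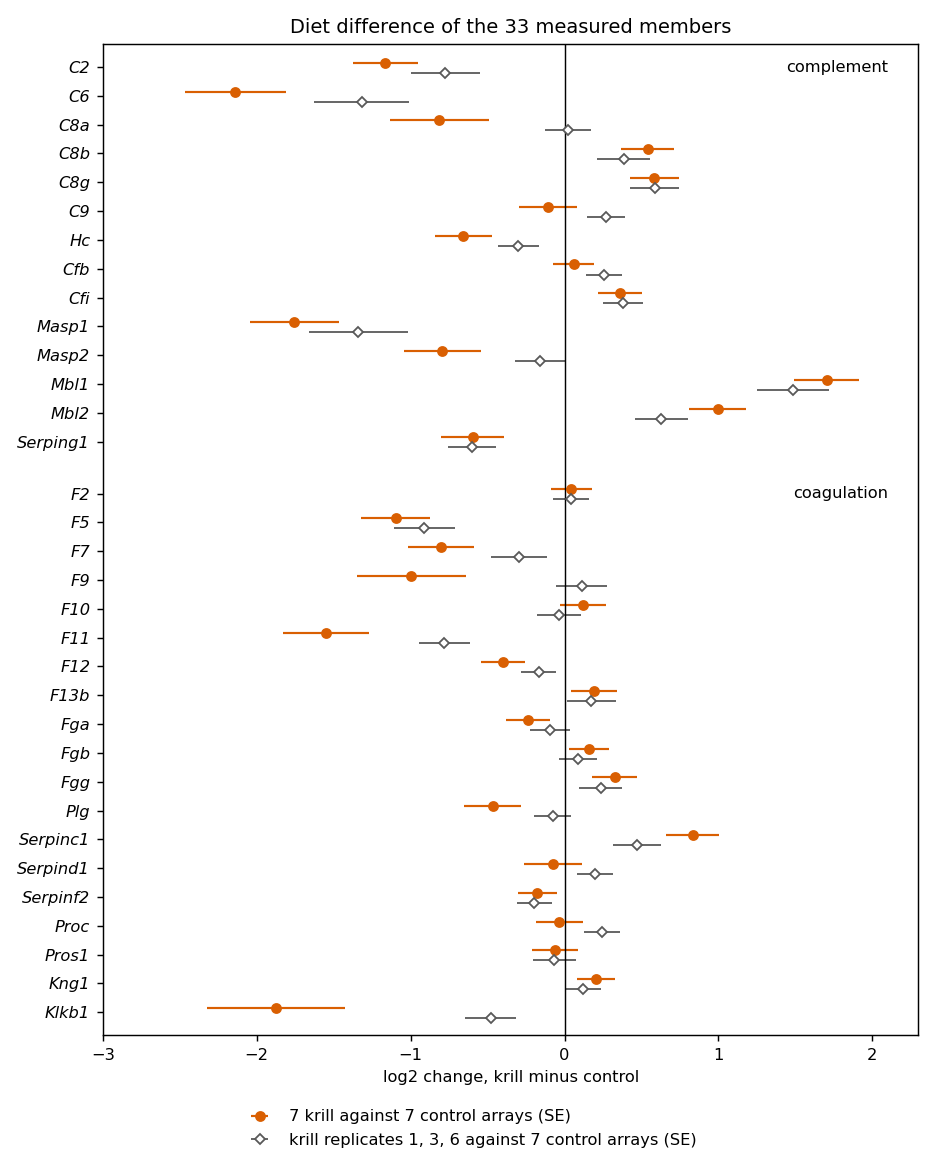
Log2 change (krill minus control, horizontal axis) of the 33 measured members, complement above coagulation, with standard errors. Filled circles are the fit with 7 arrays per diet and open diamonds the fit without krill replicates 2, 4, 5 and 7: Klkb1 sits at -1.88 in the first and -0.48 in the second, while Mbl1 stays above 1 in both.

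In the lectin pathway, with all arrays, both recognition proteins were called higher, and both proteases lower by their brightest probe set alone. Mbl1, which encodes mannose-binding lectin A, ran from 22802 to 57422 with a median of 30504 in krill livers, against 6774 to 16164 with a median of 11082 in control livers, which gave a difference of 1.70 (SE 0.21, limma adjusted p = 2.61e-05) on the log2 scale. No krill liver overlapped the control livers. Mbl2, which encodes mannose-binding lectin C, ran from 27456 to 64303 with a median of 45912 in krill livers, against 16900.1 to 28954 with a median of 20717 in control livers, with a change of 0.996 (SE 0.19, limma adjusted p = 0.000375). Here the lowest krill liver lay under the highest control liver. Without krill replicates 2, 4, 5 and 7 the changes were 1.49 (limma adjusted p = 0.000916) for Mbl1 and 0.63 (limma adjusted p = 0.0123) for Mbl2, so both stayed higher. Both also stayed above 0 with every scaling tried, down to 0.92 and 0.21 with spike-in scaling, where Mbl2 no longer passed.

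The protease Masp1 ran from 679 to 2464 with a median of 1155 in krill livers, against 2943 to 6818 with a median of 4863 in control livers, a change of -1.76 (SE 0.29, limma adjusted p = 0.000139), and no krill liver overlapped the control livers. This holds for 1 of its 5 probe sets, and the mean of the 5 was not called. Masp2, which encodes the protease that cuts C4 and C2, ran from 1217 to 4870.1 with a median of 2583 in krill livers, against 3693 to 5259 with a median of 4579 in control livers, a change of -0.79 (SE 0.25, limma adjusted p = 0.0156). Its krill values split by array, with 1217 to 2583 on krill replicates 2, 4, 5 and 7 and 3477 to 4870.1 on the others. Without those 4 arrays Masp2 stood at -0.16 (limma adjusted p = 0.485), and Masp1 at -1.34 (limma adjusted p = 0.00608).

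The windows around the transcription starts of the lectins are printed because these genes had the highest changes among the complement members and rose together. Sequences here are RefSeq windows of GRCm38.p6 (300 bases, 250 before and 50 after the annotated start), available for 25 of the 33 measured members. Capitals mark the longest run of bases that both windows share, 13 bases that 3 of 27025 RefSeq windows hold on either strand. The run was taken from the Mbl1 and Mbl2 windows, which are both counted among those 3. Mbl1 lies at chr14:41151206-41151505, plus strand, and Mbl2 at chr19:30232678-30232977, plus strand.

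Mbl1: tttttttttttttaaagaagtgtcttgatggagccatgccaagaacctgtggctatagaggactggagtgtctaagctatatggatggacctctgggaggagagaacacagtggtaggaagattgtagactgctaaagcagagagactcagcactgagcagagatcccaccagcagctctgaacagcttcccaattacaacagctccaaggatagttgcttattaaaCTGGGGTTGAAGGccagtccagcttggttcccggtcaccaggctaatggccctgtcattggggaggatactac

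Mbl2: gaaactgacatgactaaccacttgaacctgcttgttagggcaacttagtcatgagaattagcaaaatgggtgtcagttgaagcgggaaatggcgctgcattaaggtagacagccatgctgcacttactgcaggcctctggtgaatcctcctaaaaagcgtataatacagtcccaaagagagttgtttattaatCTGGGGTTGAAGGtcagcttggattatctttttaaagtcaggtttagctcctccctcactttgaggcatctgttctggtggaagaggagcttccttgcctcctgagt

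The shared run begins at position -23 from the annotated start in Mbl1 and at -57 in Mbl2. A shared run is a description of the letters and says nothing of what binds there.

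**Figure D2:**
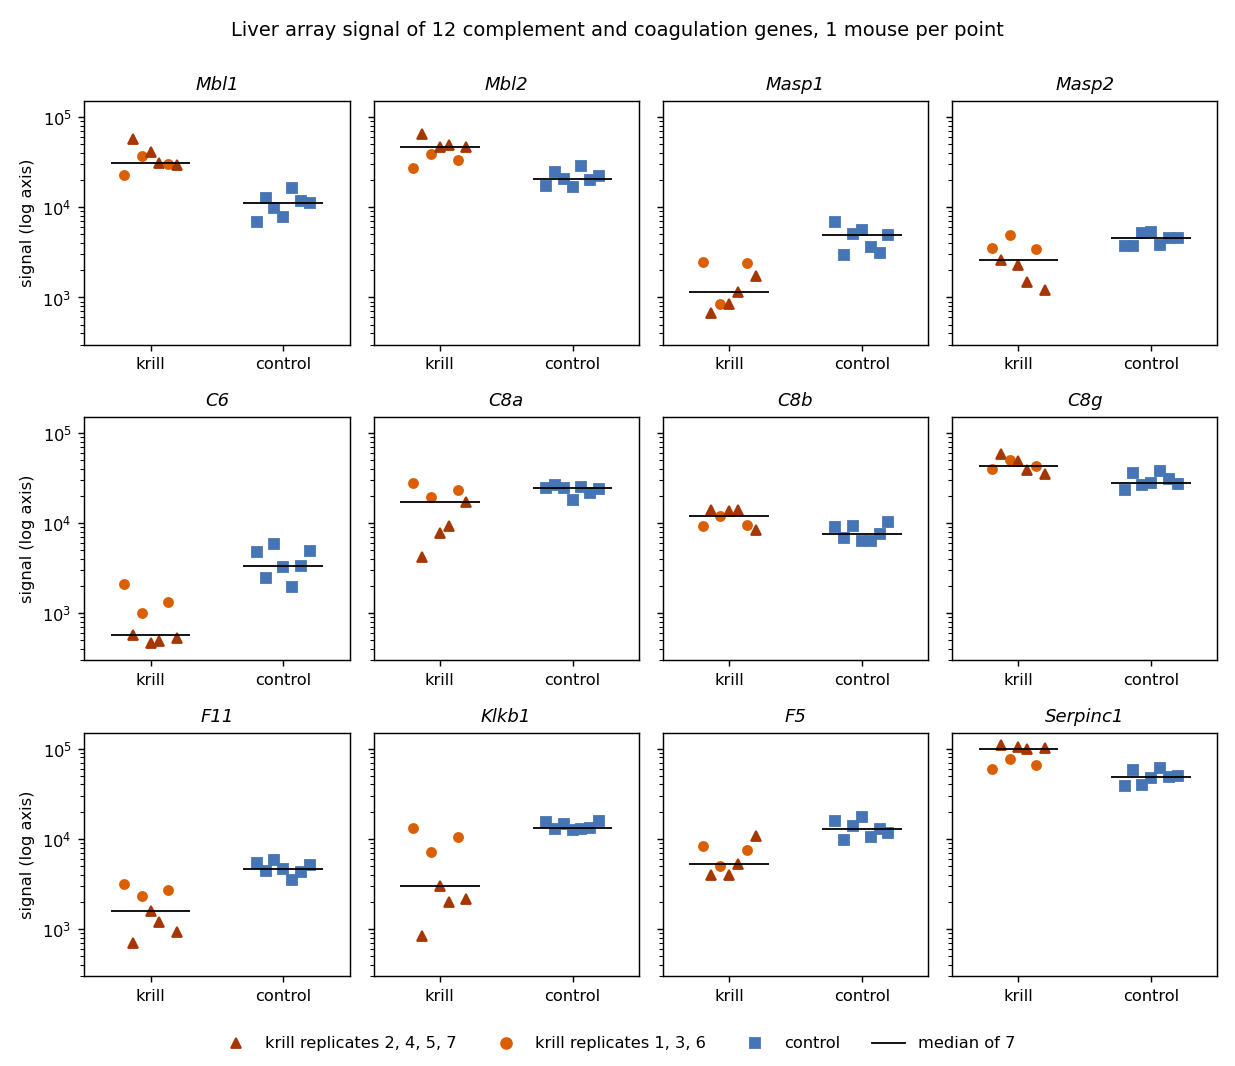
Signal per liver (log axis, the same in every panel) of 12 members, krill left of control, with 1 mouse per point and the median of 7 as a line. Triangles are krill replicates 2, 4, 5 and 7: they hold the lowest krill values of C6, C8a, F11 and Klkb1 and the highest of Serpinc1.

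Among the components of the C3 convertases only 2 of 4 were measured. C2, the protease part of the classical and lectin convertase, ran from 707 to 1716 with a median of 972 in krill livers, against 1657 to 3603 with a median of 2201 in control livers, a change of -1.16 (SE 0.21, limma adjusted p = 0.00031). The groups overlapped, although all 7 krill livers lay below the control mean. Cfb, factor B, its counterpart in the alternative pathway and a neighbour of C2 on chromosome 17, stood at 0.06 (SE 0.14, limma adjusted p = 0.735), with a 95% interval of -0.22 to 0.34. Without krill replicates 2, 4, 5 and 7 the values were -0.77 (limma adjusted p = 0.0167) for C2 and 0.26 (limma adjusted p = 0.104) for Cfb. Of the inhibitors, Cfi, the protease that inactivates C3b and C4b, was called higher at 0.36 (SE 0.14, limma adjusted p = 0.0462), but stood below 0 under other scalings, at -0.14 with quantile normalization, -0.04 with median centring and -0.43 with spike-in scaling. Without the 4 arrays Cfi stood at 0.38 (limma adjusted p = 0.0392). Serping1, the C1 inhibitor, which also restrains the contact system of clotting, fell by 0.60 on the log2 scale (SE 0.20, limma adjusted p = 0.0213) and stood at -0.60 (limma adjusted p = 0.0094) without those arrays. Its call ended without krill replicate 4 alone, at -0.49 (limma adjusted p = 0.0535).

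In the terminal pathway 3 of 6 measured members fell, 2 rose and 1 was not called (83.3% called, against 47.7% of all genes). The share was 33.3% without krill replicates 2, 4, 5 and 7, against 32.3% of all genes. C6, which follows C5b in the pore, ran from 462 to 2104 with a median of 569 in krill livers, against 1942 to 5851 with a median of 3298 in control livers, a change of -2.14 (SE 0.33, limma adjusted p = 7.54e-05). All 7 krill livers lay below the control mean, and the ranges overlapped. The signal was 462 to 569 on krill replicates 2, 4, 5 and 7 and 1002 to 2104 on the other krill arrays, and without the 4 arrays the change was -1.32 (limma adjusted p = 0.0056). Hc, which encodes C5, changed by -0.66 (SE 0.19, limma adjusted p = 0.00798), and C9, the pore-forming unit, by -0.11 (SE 0.19, limma adjusted p = 0.646). Without the 4 arrays Hc stood at -0.30 (limma adjusted p = 0.0967) and C9 at 0.27 (limma adjusted p = 0.109).

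The subunits of C8, which form 1 complex from an alpha, a beta and a gamma chain, did not move alike. C8a ran from 4226 to 28056 with a median of 17254 in krill livers, against 17766 to 26380.1 with a median of 24144 in control livers, a change of -0.81 (SE 0.32, limma adjusted p = 0.0451). Its low values were 4226 to 17254 on krill replicates 2, 4, 5 and 7, against 19598 to 28056 on the other krill arrays. C8b ran from 8399 to 14107 with a median of 11995 in krill livers, against 6269 to 10319 with a median of 7494 in control livers, a change of 0.54 (SE 0.17, limma adjusted p = 0.0158), and C8g from 34599.7 to 58902 with a median of 42853 in krill livers, against 23045 to 37875 with a median of 27557 in control livers, a change of 0.58 (SE 0.16, limma adjusted p = 0.00598). No krill value of C8b or C8g lay below the control mean on the log2 scale, but neither was called with quantile normalization (0.37 and 0.06) or median centring (0.14 and 0.18), and both turned negative with spike-in scaling (-0.24 and -0.20). Without the 4 arrays C8a stood at 0.02 (limma adjusted p = 0.933), C8b at 0.38 (limma adjusted p = 0.104) and C8g at 0.59 (limma adjusted p = 0.0119), so C8g alone of the subunits was called in both fits.

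C8b and C8a are direct neighbours among the protein-coding genes of chromosome 4 and were called in opposite directions with all arrays, so their windows are shown. Capitals mark matches to GTTAAT, part of the HNF1 motif, and to TTCNNNGAA, the STAT motif, searched on both strands. The C8b window lies at chr4:104766067-104766366, plus strand, and that of C8a at chr4:104876349-104876648, minus strand.

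C8b: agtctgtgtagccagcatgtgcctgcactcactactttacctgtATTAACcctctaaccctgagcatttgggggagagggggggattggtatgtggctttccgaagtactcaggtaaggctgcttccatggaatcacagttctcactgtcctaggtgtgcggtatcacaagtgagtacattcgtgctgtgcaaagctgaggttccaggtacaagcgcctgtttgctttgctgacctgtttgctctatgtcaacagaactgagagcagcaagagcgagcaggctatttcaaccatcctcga

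C8a: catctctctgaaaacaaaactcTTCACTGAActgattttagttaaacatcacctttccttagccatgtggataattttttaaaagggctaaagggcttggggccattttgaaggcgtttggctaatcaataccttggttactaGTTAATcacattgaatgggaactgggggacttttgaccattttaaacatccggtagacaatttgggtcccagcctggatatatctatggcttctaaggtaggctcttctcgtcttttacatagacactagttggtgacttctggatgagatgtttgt

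Both windows hold the HNF1 letters, at position -206 from the annotated start in C8b and -107 in C8a, and the C8a window also holds the STAT motif at -228. A match is a description of letters, not a bound site.

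In the contact system, the surface-triggered start of clotting, 3 of 4 measured members fell. Of all tested genes 47.7% were called, 24.8% lower. The count was 2 of 4 without krill replicates 2, 4, 5 and 7, where 32.3% of all genes were called, 19.6% lower. Klkb1, plasma prekallikrein, ran from 839 to 13118 with a median of 2979 in krill livers, against 12664 to 15867 with a median of 13087 in control livers, a change of -1.88 (SE 0.45, limma adjusted p = 0.00258). Its krill signal was 839 to 2979 on krill replicates 2, 4, 5 and 7 and 7126 to 13118 on the other krill arrays, and without the 4 arrays the change was -0.48 (limma adjusted p = 0.0379). F11, the protease that activates factor IX, ran from 703 to 3157 with a median of 1585 in krill livers, against 3482 to 5841 with a median of 4585 in control livers, a change of -1.55 (SE 0.28, limma adjusted p = 0.000294). No krill liver overlapped the control livers, and without the 4 arrays F11 stood at -0.78 (limma adjusted p = 0.00307). F12, the Hageman factor, changed by -0.40 (SE 0.14, limma adjusted p = 0.0302) with all arrays and -0.17 (limma adjusted p = 0.286) without the 4. Its call also ended without krill replicate 5 or without control replicate 1, 3 or 4 (log2 change from -0.39 to -0.38, limma adjusted p from 0.0511 to 0.0569). Kng1, the kininogen that carries both proteases, stood at 0.20 (SE 0.12, limma adjusted p = 0.184) by its brightest probe set.

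F11 and Klkb1 are neighbours on chromosome 8 with no coding gene between them, and both fell in both fits. Their windows are shown with capitals on matches to TTGCNNAA, a form of the C/EBP motif, and to TATAAA, the TATA box, on both strands. F11 lies at chr8:45261982-45262281, minus strand, and Klkb1 at chr8:45294786-45295085, minus strand.

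F11: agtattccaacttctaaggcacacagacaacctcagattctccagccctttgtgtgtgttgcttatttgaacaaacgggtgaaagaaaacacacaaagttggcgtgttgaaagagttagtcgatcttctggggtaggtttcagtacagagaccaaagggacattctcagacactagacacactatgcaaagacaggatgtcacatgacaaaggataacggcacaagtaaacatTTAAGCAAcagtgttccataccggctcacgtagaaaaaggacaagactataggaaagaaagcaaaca

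Klkb1: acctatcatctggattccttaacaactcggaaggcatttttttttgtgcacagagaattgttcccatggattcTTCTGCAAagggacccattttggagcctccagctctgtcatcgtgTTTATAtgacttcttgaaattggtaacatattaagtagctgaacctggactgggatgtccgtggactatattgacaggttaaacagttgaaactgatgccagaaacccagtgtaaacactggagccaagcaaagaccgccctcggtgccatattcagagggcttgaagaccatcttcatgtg

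The C/EBP form begins at position -17 from the annotated start in F11 and at -177 in Klkb1, and the TATA letters in Klkb1 begin at -132. Over the 25 members with a window, GTTAAT was found in 7 (28.0%, against 7.2% of all 27025 windows), TTGCNNAA in 7 (28.0% against 10.8%), TTCNNNGAA in 6 (24.0% against 8.5%), TATAAA in 2 (8.0% against 14.2%) and the HNF4 motif CAAAGTCCA in 0 (against 0.5%). No 2 matches overlapped. Fga and Fgb each hold the STAT, C/EBP and HNF1 letters in that order towards the start, and Fgg, Mbl1, Mbl2 and C6 hold none of the 5.

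Of the vitamin K dependent clotting proteases 2 of 4 fell and the others were not called. This count lay close to the 47.7% called among all tested genes, 24.8% of which were called lower. It was 0 of 4 without krill replicates 2, 4, 5 and 7, where 32.3% of all genes were called. F7, which starts the tissue factor pathway, ran from 1149 to 2875 with a median of 1788 in krill livers, against 2305 to 3992 with a median of 3412 in control livers, a change of -0.80 (SE 0.22, limma adjusted p = 0.00575). F9, the antihemophilic factor IX, ran from 2082 to 14364 with a median of 4233 in krill livers, against 9091 to 14959 with a median of 10824 in control livers, a change of -0.996 (SE 0.36, limma adjusted p = 0.028). Its krill values fell apart into 2082 to 4233 on krill replicates 2, 4, 5 and 7 and 10470.2 to 14364 on the others. Without the 4 arrays F7 stood at -0.30 (limma adjusted p = 0.231) and F9 at 0.11 (limma adjusted p = 0.649), so neither was called. F9 also lost its call without krill replicate 2, 4, 5 or 7 alone or without control replicate 5 (log2 change from -0.93 to -0.76, limma adjusted p from 0.0521 to 0.0633). F10, a direct neighbour of F7 on chromosome 8 and the protease that forms thrombin, stood at 0.12 (SE 0.15, limma adjusted p = 0.517) and prothrombin, F2, at 0.05 (SE 0.13, limma adjusted p = 0.792), with 95% intervals of -0.19 to 0.43 and -0.23 to 0.32. F5, the cofactor of factor X, ran from 3924 to 10819.9 with a median of 5214 in krill livers, against 9637 to 17539.6 with a median of 12967 in control livers, a change of -1.10 (SE 0.22, limma adjusted p = 0.0008). It stood at -0.91 (limma adjusted p = 0.00404) without the 4 arrays.

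None of the 4 genes of fibrin and its cross-linker was called, although 3 of the 4 passed an adjusted threshold under other scalings. The called share of all genes was 47.7%. Fga, Fgb and Fgg, which encode the alpha, beta and gamma chains of fibrinogen and lie side by side on chromosome 3, had changes of -0.24 (SE 0.14, limma adjusted p = 0.183), 0.16 (SE 0.13, limma adjusted p = 0.314) and 0.33 (SE 0.15, limma adjusted p = 0.0717). Their 95% intervals were -0.54 to 0.07, -0.11 to 0.43 and 0.02 to 0.63. Fgg ran from 55846 to 83772 with a median of 65666 in krill livers, against 43287 to 63720.3 with a median of 55569.7 in control livers, and none of its krill values lay below the control mean on the log2 scale. It was called higher without krill replicate 1 and without krill replicate 2 (log2 change 0.36 and 0.37, limma adjusted p = 0.0459 and 0.0433). F13b, the carrier subunit of the enzyme that cross-links fibrin, stood at 0.19 (SE 0.15, limma adjusted p = 0.302). With quantile normalization Fga, Fgb and Fgg stood at -0.84, -0.54 and -0.33 and were called lower, as were F2 at -0.50 and Kng1 at -0.44, so the calls of these bright transcripts depend on the scaling.

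Of the anticoagulants 1 of 4 rose and the others were not called (25.0% called, against 47.7% of all genes, 22.9% of them higher). Serpinc1, antithrombin, ran from 59125 to 109657 with a median of 99128 in krill livers, against 38299 to 60161 with a median of 48646 in control livers, a change of 0.83 (SE 0.17, limma adjusted p = 0.000903), with 99128 to 109657 on krill replicates 2, 4, 5 and 7 and 59125 to 77538 on the other krill arrays. No krill value lay below the control mean, and without the 4 arrays the change was 0.47 (limma adjusted p = 0.0327). With quantile normalization it stood at 0.11 and with spike-in scaling at 0.05, and it was not called (limma adjusted p = 0.316 and 0.823). Serpind1 (heparin cofactor II), Proc (protein C) and its cofactor Pros1 (protein S) differed by -0.07, -0.03 and -0.06, none of them called (limma adjusted p = 0.764, 0.87 and 0.753). In fibrinolysis, Plg, the plasmin precursor, ran from 19746 to 47101 with a median of 35764 in krill livers, against 43625 to 56315 with a median of 49434 in control livers, a change of -0.47 (SE 0.18, limma adjusted p = 0.0442), and stood at -0.08 (limma adjusted p = 0.66) without the 4 arrays. Serpinf2, the main plasmin inhibitor, stood at -0.18 (SE 0.13, limma adjusted p = 0.268).

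Calls close to the threshold were lost in many fits with 1 array fewer, often with little change in size. Leaving out 1 array at a time ended the call of Cfi in 12 of 14 fits (log2 change from 0.31 to 0.38, limma adjusted p from 0.0544 to 0.0949), with krill replicates 1 and 2 as the exceptions. It ended that of Plg in 11 (from -0.50 to -0.32, limma adjusted p from 0.0504 to 0.0883), with krill replicates 1, 3 and 6 as the exceptions. That of C8a ended in 9 (from -0.83 to -0.54, limma adjusted p from 0.0592 to 0.102), the arrays being krill replicates 2, 4 and 5 and each control replicate but 4. C2, C6, F5, F11 and Mbl1 kept their call in each of the 28 alternative fits other than the one with the 3'/5' index as a covariate, which called 0 of 11308 genes (limma; 1872 at an unadjusted p under 0.05, among them 4 complement members and 1 coagulation member).

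The spread between animals was wider in krill livers for 32 of 33 members, the exception being F13b, and for 87.3% of all tested genes. The median within-diet SD on the log2 scale was 0.40 in krill and 0.20 in control livers over the members, and 0.55 in krill and 0.29 in control livers over all tested genes. In 14 of the 33 members (42.4%) krill replicates 2, 4, 5 and 7 all lay below the other krill arrays, which held for 12.8% of all tested genes. In Mbl2 and Serpinc1 (6.06%) they all lay above, against 18.6% of all tested genes. Klkb1 had the widest krill SD of the members, at 1.44 against 0.14 in control livers, followed by F9 at 1.09 against 0.26.

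The change also went with the signal of the probe set. Over the 33 members the change and the mean log2 signal had a Pearson r of 0.64 and a Spearman rho of 0.67. This is a description across genes that share the same 14 arrays. Over all tested genes r was -0.04 and rho -0.13. The mean log2 signal includes the krill arrays, so a gene lower in krill livers moves to a lower signal by that alone. This holds for the correlations and for the signal ranges below. Its part in them was not tested. The 7 members with a mean log2 signal of 10 to 12 had a median change of -1.16, against -0.08 over the 2331 tested genes of that range. The 9 members from 12 to 14 had a median of -0.40, against 0.12 over 847 genes, and the 17 members at 14 and above a median of 0.16, against 0.53 over 316 genes.

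**Figure D3:**
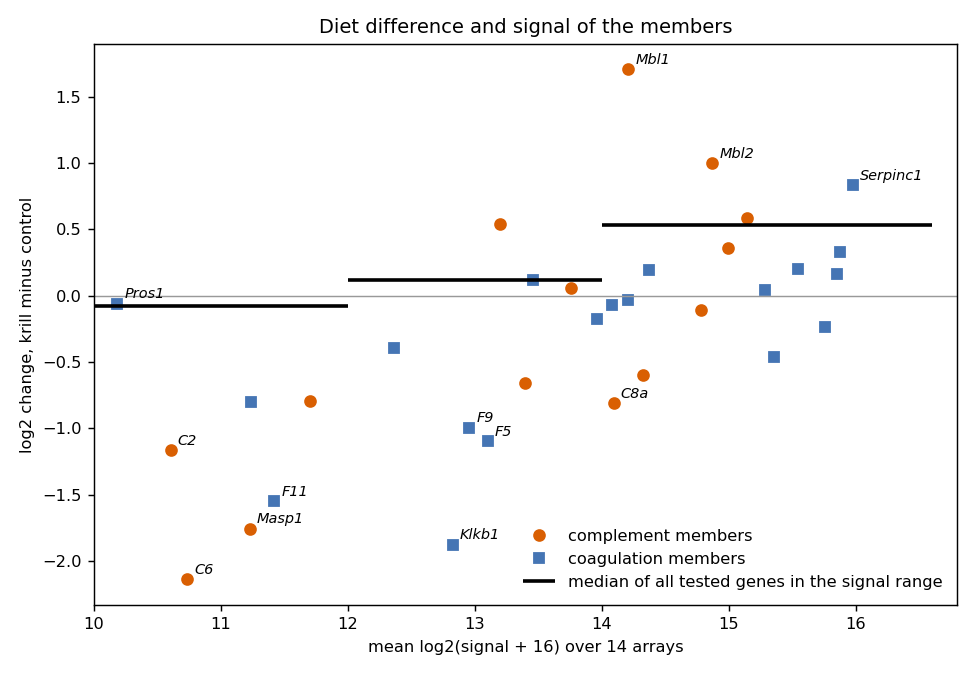
Log2 change (krill minus control) of the 33 members against their mean log2 signal over 14 arrays, with the median of all tested genes in each signal range as a black line. This mean includes the krill arrays, so the axes are not independent. Members at 14 and above centre on 0.16 and lie mostly under the 0.53 of all genes there, with Mbl1, Mbl2, C8g and Serpinc1 above it.

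A ratio of 2 transcripts on the same array is free of any 1 factor that multiplies the whole array, though not of quantile normalization, and shows unequal change, not which of the 2 changed. Such a ratio also keeps any effect that acts unequally on probe sets, and the 3'/5' index did not overlap between diets. The part of that index in the ratios was not tested. The ratios were chosen after values were seen, from 15 computed. How often ratios of other gene pairs lack overlap was not computed, so those below are descriptions only. The ratio of Mbl1 to Masp1 was higher by 3.46 on the log2 scale in krill livers and did not overlap the control livers, also without krill replicates 2, 4, 5 and 7 (2.82). It uses the brightest Masp1 probe set, the only 1 of 5 that was called lower. The ratio of Mbl1 to Mbl2 was higher by 0.71 in krill livers with no overlap, and by 0.85 without the 4 arrays. The signals of these 2 probe sets thus rose unequally. The ratio of C8g to C8a was higher by 1.40 and that of C8b to C8a by 1.35, both with overlap, and they were 0.57 and 0.36 without the 4 arrays. The ratio of C8g to C8b differed by 0.04, within a control SD of 0.50.

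The fibrinogen chains, each short of a call alone, had ratios with a small spread in control livers. The ratio of Fgg to Fga was higher by 0.56 in krill livers, with an SD of 0.28 in krill and 0.08 in control livers (n = 7 each) and no overlap. With the 4 krill arrays left out it was higher by 0.33, still without overlap. The ratio of Fgb to Fga differed by 0.40, or 0.18 without the 4 arrays, and that of Cfb to its neighbour C2 by 1.22, the second with no overlap and at 1.03 without the 4 arrays.

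**Figure D4:**
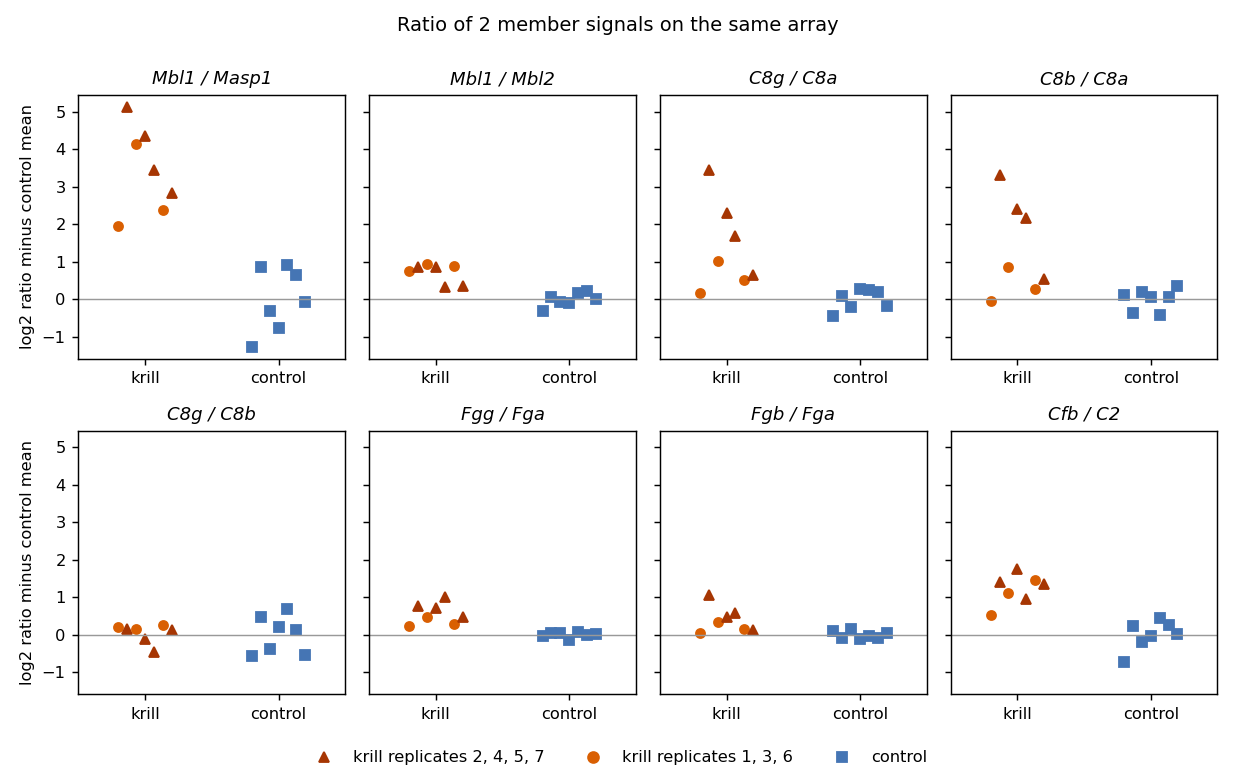
Log2 ratio of 2 member signals on the same array, set to 0 at the control mean (vertical axis, the same in every panel), krill left of control, 1 mouse per point. All 7 krill livers lie above the control livers for Mbl1 / Masp1, Mbl1 / Mbl2, Fgg / Fga and Cfb / C2, while C8g / C8b overlaps. The pairs were chosen after values were seen.

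Probe sets of the same gene did not always share a call. Of the 6 members with more than 1 probe set, C2 (3 of 3) and F5 (2 of 2) were lower in each. Masp1 has 5, and its brightest was called lower at -1.76 while the others stood at 0.41, 0.14, -0.08 and 0.23, none of them called (limma adjusted p from 0.0712 to 0.774, over every probe set). The brightest had a signal of 1449 ± 760 (SD, n = 7) in krill and 4581 ± 1431 (SD, n = 7) in control livers, and the next 1355 ± 360 in krill and 997 ± 150 in control livers. Masp1 is known to give several proteins by alternative splicing, and which of them each probe set reads was not tested. The mean of the Masp1 probe sets stood at -0.21 and was not called (limma adjusted p = 0.239).

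F10 and Kng1 gave different calls between probe sets as well. The brightest F10 probe set stood at 0.12 (limma adjusted p = 0.529), and the others were called higher at 0.56 and 0.73 (limma adjusted p = 0.00858 and 0.00343). The brightest Kng1 probe set stood at 0.20 (limma adjusted p = 0.203), and the other was called lower at -0.71 (limma adjusted p = 0.000887), with a signal of 11877 ± 2166 (SD, n = 7) in krill and 19192 ± 1633 (SD, n = 7) in control livers. The second Masp2 probe set stood at -0.36 and did not pass (limma adjusted p = 0.203). The remaining 27 measured members rest on 1 probe set each.

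**Figure D5:**
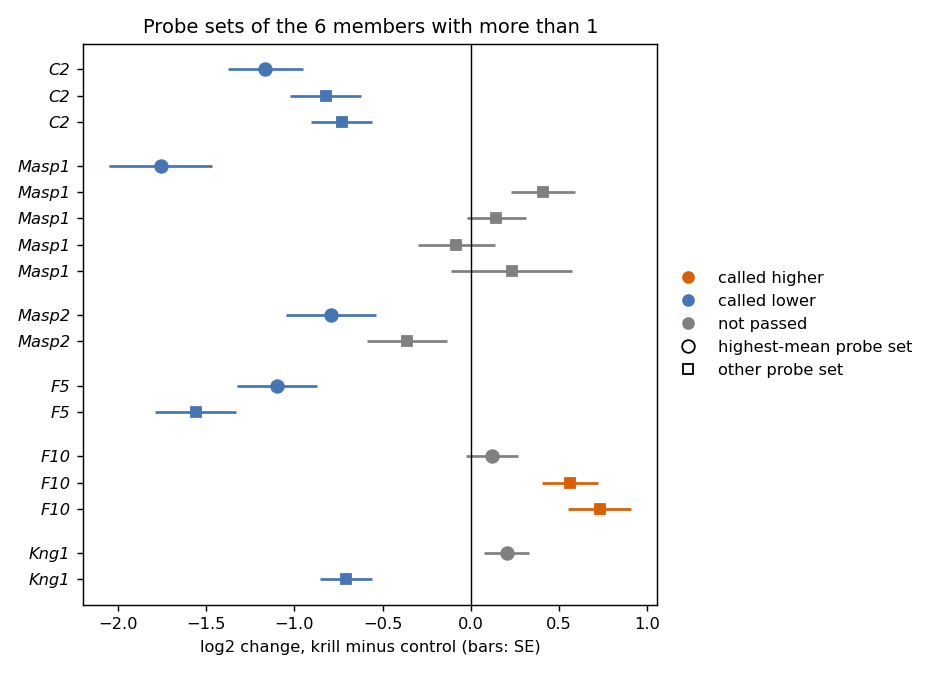
Log2 change (krill minus control) with its standard error for each probe set of the 6 members that have more than 1, the brightest first. The probe sets of C2 and F5 were all called lower, and those of Masp1, Masp2, F10 and Kng1 do not share a call.

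Other genes of these systems, from written lists, gave a mixed count too. Of 21 tested complement receptors, regulators and further components (of 29 listed) 7 rose, 7 fell and 7 did not pass (66.7% called, against 47.7% of all genes), with a median log2 change of -0.12. With krill replicates 2, 4, 5 and 7 left out the list had 4 higher and 2 lower (28.6%, against 32.3% of all genes) and a median of 0.04. Cd59a, which blocks the membrane attack complex on the cell's own surface, ran from 6262 to 18982 with a median of 10859 in krill livers, against 3474 to 5720.4 with a median of 4569 in control livers, a change of 1.24 (SE 0.21). Cr1l, the rodent regulator Crry of C3 convertases, changed by 0.80 (SE 0.16), the factor H related gene Cfhr2 by 1.10 (SE 0.19) and the collectins Colec10 and Colec11 by 1.07 (SE 0.20) and 0.61 (SE 0.16). Krill and control livers did not overlap in Cd59a, Cr1l and Cfhr2 (14.3% of the list, against 14.1% of all genes). Clu, clusterin, an inhibitor of the terminal complex, changed by -1.41 (SE 0.26) and Cpn2, a subunit of the enzyme that inactivates anaphylatoxins, by -1.21 (SE 0.29). Cd46, a membrane cofactor of factor I, changed by 1.34 (SE 0.34), with a mean signal of 301.3 in krill livers and 98.3 in control livers. The control mean lies under the filter limit of 100.6, so Cd46 was tested only through its krill values. The limma adjusted p of these 8 ran from 0.000141 for Cd59a to 0.00561 for Colec11. Without krill replicates 2, 4, 5 and 7 these stood at 0.94 for Cd59a, 0.58 for Cr1l, 1.01 for Cfhr2, 0.70 for Colec10, -0.75 for Clu and -0.89 for Cpn2, all called, and Colec11 and Cd46 at 0.25 and 0.67 were not.

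Of 23 tested further genes of clotting, its inhibitors and fibrinolysis (of 36 listed) 6 rose, 9 fell and 8 did not pass (65.2% called, against 47.7% of all genes), with a median of -0.35. The list had, without krill replicates 2, 4, 5 and 7, 3 higher and 5 lower (34.8%, against 32.3% of all genes) and a median of 0.02. Thbd, thrombomodulin, named after its values were seen, counts among the 6 that rose with a mean signal of 199.7 in krill livers and 84.9 in control livers, the second under the filter limit of 100.6. Hrg, the histidine-rich glycoprotein that binds heparin and plasminogen, ran from 1025 to 13635 with a median of 2809.7 in krill livers, against 16817 to 33252 with a median of 27154 in control livers, a change of -2.98 (SE 0.43). Hgfac, a protease that activates hepatocyte growth factor, ran from 1825 to 6185 with a median of 2922 in krill livers, against 8715 to 15438 with a median of 11114 in control livers, a change of -1.91 (SE 0.26). Pzp, an alpha-macroglobulin that traps proteases, changed by -1.92 (SE 0.41), Itih2 and Itih1, heavy chains of inter-alpha-trypsin inhibitor, by -2.26 (SE 0.46) and -1.09 (SE 0.27), and Habp2, a protease able to activate factor VII, by -0.83 (SE 0.21). Mcfd2, part of the receptor that carries factors V and VIII out of the endoplasmic reticulum, changed by 0.65 (SE 0.13), and Plaur, the urokinase receptor, by 1.32 (SE 0.33). The limma adjusted p of these 8 ran from 3.81e-05 for Hgfac to 0.00378 for Habp2. Krill livers did not overlap control livers in Hrg, Hgfac, Pzp, Itih2, Habp2 and Mcfd2 (26.1% of the list, against 14.1% of all genes). Without krill replicates 2, 4, 5 and 7 these 6 stood at -1.67, -1.19, -0.64, -0.85, -0.50 and 0.50 and were called, and Itih1 and Plaur at -0.36 and 0.75 were not.

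Markers of liver cell types did not move as 1 block. For comparison, 22.9% of all tested genes were called higher and 24.8% lower. The called share of all genes was 32.3% without krill replicates 2, 4, 5 and 7. Of the hepatocyte markers 4 of 6 tested rose and the others were not called, with a median of 0.53 and a summed signal of 381363 to 660438 in krill and 290587 to 455765 in control livers. All tested genes with a mean log2 signal of 14 and above had the same median of 0.53. In the fit without krill replicates 2, 4, 5 and 7 limma called 0 of the 6 hepatocyte markers (1 higher at an unadjusted p under 0.05), and their median was 0.29. Kupffer cell markers (2 of 7 higher, 2 lower) had a summed signal of 8493 to 16415 in krill and 7173 to 9605 in control livers, and sinusoidal endothelial markers (1 of 7 higher, 1 lower) one of 5246 to 14111 in krill and 8981 to 10436 in control livers. Stellate cell markers (2 of 6 higher, 2 lower) summed to 13886 to 20369 in krill and 15460 to 20809 in control livers. Of the platelet markers 1 of 2 tested, Pf4, was higher at 0.55 (SE 0.22, limma adjusted p = 0.0476). It stood at 0.17 without krill replicates 2, 4, 5 and 7 and was not called. Platelet markers, of 4 with a probe set, summed to 605 to 1196 in krill and 502 to 758 in control livers. With all arrays 0 of the tested red cell, lymphocyte and cholangiocyte markers were called. Without the 4 arrays the red cell marker Alas2 was called higher at 0.56 (limma adjusted p = 0.0285). The tested acinar pancreas marker, Cela1, was higher with no overlap, at 6038 to 19027.5 in krill and 2471 to 5006 in control livers. That list summed to 6046 to 19065 in krill and 2476 to 5009 in control livers, so its sum mostly repeats this 1 gene. Of the neutrophil markers 1 of 2 tested, S100a8, was higher, but its mean of 272.8 in krill and 87.2 in control livers means that it was tested only through its krill values. The neutrophil list summed to 332 to 1380.3 in krill and 255 to 620.1 in control livers. The part of any cell type in the results was not tested.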

How the data were processed

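Liver RNA of 14 mice, 7 per diet, was read on Affymetrix arrays, 1 mouse per array. The deposited table gives, for each probe set, an intensity that is not log-transformed, made with MAS5 per the submitters' processing notes (version not given in the sources used here). The 2% trimmed mean was 500.0 on every array of the deposited table, so arrays had been scaled. Nothing in the table gives read-like depth, and the number of arrays limits the precision.

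From these values log2(signal + 16) was computed. Probe sets in the upper 50% by mean of these values were kept, and among those with 1 symbol in the platform annotation the highest-mean probe set stood for its gene, leaving 11308 genes. Diets were compared with limma 3.58.1 (lmFit, eBayes with trend; R 4.3.3), without covariates, and called at a Benjamini-Hochberg adjusted p under 0.05. The procedure was tested on simulated data with independent genes and the same spread in both diets. Here the spread was wider in krill livers for 87.3% of all tested genes, so that test does not cover this feature. Members and gene lists were chosen with earlier results of these data known. Every member is named, as are the other listed complement and coagulation genes past the threshold, at most 8 per list by smallest p. Alternatives covered pseudocounts, normalization, filters, probe set choice, weights, covariates and left-out arrays. C3 was not analysed here.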

Additional observations from a re-analysis of the deposited data

Results flagged for a closer look

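Serpind1, heparin cofactor II, had a signal of 8354 in krill replicate 7, far from the other 6 krill livers: its gap to the nearest was 0.599 of the group's range, above Dixon's 95% critical value for 7 values. It was the only such value among the 66 groups examined (33 members in each diet), a smaller share than the 1 in 20 that chance gives. The same array had the highest GAPDH ratio, 1.69. The cause was not tested.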

How the results depend on the processing

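Arrays set the limits here: 7 per diet, 4 krill arrays that stand apart in spike-in level, and a 3'/5' index that does not overlap between diets, so that index and diet cannot be told apart. Median centring moved the median change of all tested genes to -0.36 and spike-in scaling to -0.75. Single directions below are relative to those shifts. Of all 11308 genes, 2594 were called higher and 2803 lower with the settings used above. These counts were 2754 and 2530 with quantile normalization, 1001 and 3728 with centring, and 299 and 5541 with spike-in scaling. They were 790 and 1188 with the spike-in covariate and 0 and 0 with the index. Without krill replicates 2, 4, 5 and 7 they were 1438 and 2213. Complement members called higher numbered 2 with quantile normalization, with centring and with spike-in level as covariate, 1 with spike-in scaling and 0 with the 3'/5' index, against 5. Those called lower numbered 3 with the spike-in covariate, 0 with the index and 4 without krill replicates 2, 4, 5 and 7, against 7. Coagulation members called higher numbered 0 with quantile normalization, spike-in scaling, the spike-in covariate and the index, against 1. They numbered 2 with a stricter signal filter, averaged probe sets and array weights. Of all genes, 1840 of 7785 were called higher with the stricter filter, 2471 of 11308 with averaged probe sets and 2794 of 11308 with array weights. Coagulation members called lower numbered 14 with quantile normalization, 16 with spike-in scaling and 2 with the spike-in covariate, against 7. They numbered 0 with the index and 3 without the 4 arrays. At an unadjusted p under 0.05 limma gave 2 higher and 2 lower complement members and 0 higher and 1 lower coagulation members with the index; coagulation members higher were then 0 with quantile normalization, 0 with spike-in scaling and 1 with the spike-in covariate.

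The complement median was -0.65 with quantile normalization, -0.76 with centring, -1.14 with spike-in scaling, -0.16 with averaged probe sets, -0.11 with Serping1 counted as coagulation, 0.15 with the spike-in covariate, 0.36 with the index and 0.14 without the 4 arrays, against -0.35. The coagulation median was -0.44 with quantile normalization, -0.48 with centring, -0.86 with spike-in scaling, -0.18 with averaged probe sets, -0.16 with array weights, -0.12 with Serping1 moved, -0.010 with the spike-in covariate, -0.037 without the 4 arrays and 0.10 with the index, against -0.07. Their difference, -0.28, was 0.16, 0.26 and 0.18 with the spike-in covariate, with the index and without the 4 arrays, and 0.016 and 0.017 with averaged probe sets and with Serping1 moved. Leaving out 1 array at a time gave 4 to 5 complement members higher and 5 to 7 lower, 1 to 2 coagulation members higher and 4 to 7 lower, and a difference of -0.31 to -0.14. The fits with 1 array fewer called 41.4% to 54.4% of all tested genes. With the replicate number as a block 4 complement members were higher and 7 lower, and 1 coagulation member was higher and 6 lower. That fit called 46.5% of all genes. Same-numbered arrays correlated at -0.02 to 0.10 in their deviations from the diet means. Whether equal numbers mark a shared step was not tested.

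Among the changes of single members that turned while called, or were called once turned, were those of C8a (0.054 with the spike-in covariate, 0.020 without the 4 arrays), F9 (0.18, 0.11, and 0.32 with the index), Masp2 (0.31) and Plg (0.10, both with the index). With quantile normalization these were Cfi (-0.14), F2 (-0.50), Fgb (-0.54), Fgg (-0.33) and Kng1 (-0.44), with centring Cfi (-0.041), and with spike-in scaling C8b (-0.24), C8g (-0.20), Cfi (-0.43), F2 (-0.74), F10 (-0.67), Fgb (-0.63) and Kng1 (-0.58). Uncalled members turned as well: Cfb, F10, F13b, Fgb, Fgg, F2 and Kng1 stood below 0 under quantile normalization, centring and spike-in scaling alike, Pros1 above 0 with quantile normalization, and C9, Proc and Serpind1 above 0 without the 4 arrays, with the spike-in covariate and with the index. Fga stood above 0 with the index, F2 below 0 with the spike-in covariate, F10 below 0 without the 4 arrays and Kng1 below 0 with averaged probe sets. Proc and Serpind1 turned with array weights, and C9, Proc, Pros1 and Serpind1 when 1 krill array was left out. Beyond the shift of all genes, the causes were not tested.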

Other observations

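The probe set that names both C4a and C4b, the C4 proteins of the classical and lectin pathways, had a signal of 6204 ± 1334 in krill and 6953 ± 2372 in control livers (SD, n = 7 each). The ranges, 4262 to 8419 in krill and 4752 to 11129 in control livers, overlapped. Which of the 2 genes it reads was not tested.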
